A study of Mus musculus with 6 samples.

Results

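The miRNAs described here come from the imprinted Dlk1-Dio3 domain, without a set named for the transcript antisense to Rtl1. They were chosen by name: any row of the deposited table, either arm, whose miR number was on a list of 43 numbers of this domain. That list leaves out miR-127, miR-136, miR-431, miR-433 and miR-434 of the Rtl1 antisense transcript. It also leaves out miR-134, miR-329, miR-381, miR-382, miR-485 and miR-495 of the miR-379/410 cluster, although most of its numbers come from that same cluster. Of the 756 mature miRNAs in the table, 73 from 39 precursors were members, and miR-299b, miR-654, miR-3070 and miR-3071 had no row. Both RefSeq arms of miR-299b lie letter for letter inside those of miR-299a, its antisense partner, so reads of the pair may not be separable.

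All libraries came from the dorsal striatum, a basal ganglia region involved in habits, of C57BL/6N mice aged 7 weeks. The saline control group (n = 3) received saline injections. The nicotine withdrawal group (n = 3) received nicotine, 0.5 mg/kg on each of 3 days, and then 3.0 mg/kg mecamylamine, a blocker of nicotinic acetylcholine receptors, 24 hours after the last nicotine dose. Tissue collection followed 1 week after injections ended, and saline controls had received neither drug, so the comparison covers both drugs together. The labels name 3 mice in the nicotine group, and if a library is not 1 mouse, p-values cover sample-to-sample spread alone, which may be technical.

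In the Dlk1-Dio3 domain the maternal chromosome expresses long noncoding RNAs, among them Meg3, Rian and Mirg, and the paternal chromosome expresses the protein-coding genes Dlk1, Rtl1 and Dio3. Most of its miRNAs are cut from the maternal noncoding transcripts, and many are abundant in neurons. The miR-379/410 cluster is one long run of such precursors, whose transcription rises with neuronal activity in rat neurons, and mice that lack it differ from controls in social and anxiety-related behaviour. Each precursor can give a mature miRNA from its 5′ side (5p arm) and one from its 3′ side (3p arm). Bases 2 to 8 of the mature miRNA, the seed, choose most of its targets.

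Sequences of 70 of the 73 members were found in RefSeq (assembly GRCm38.p6), all on the plus strand of chromosome 12. They are printed 5′ to 3′ with the seed in capitals. The 5 most abundant members are shown first, because they carried most of the reads. None of the 5 shares its seed with another member, while miR-344d-3p and miR-344e-3p elsewhere in the table have the seed of miR-410-3p.
miR-411-5p: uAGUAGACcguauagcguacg
miR-410-3p: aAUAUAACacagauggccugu
miR-300-3p: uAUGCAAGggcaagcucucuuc
miR-541-5p: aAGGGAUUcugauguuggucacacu
miR-341-3p: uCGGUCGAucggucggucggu

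The 70 sequences held 66 different seeds, and 4 seeds were shared by a pair of members each. These pairs are shown because miRNAs of one seed can bind the same messenger RNAs.
miR-379-5p: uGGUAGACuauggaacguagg
miR-1193-5p: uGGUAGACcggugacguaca
miR-379-3p: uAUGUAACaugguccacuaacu
miR-411-3p: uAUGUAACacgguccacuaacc
miR-376b-5p: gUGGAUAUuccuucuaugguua
miR-376c-5p: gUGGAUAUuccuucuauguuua
miR-370-5p: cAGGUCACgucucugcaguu
miR-1193-3p: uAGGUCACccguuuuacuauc
Counting from the 5′ end, miR-376b-5p and miR-376c-5p differ by the single substitution G19U, and miR-379-3p and miR-411-3p by U10C and U22C. Reads of such near copies may be split or counted for both, so these 4 levels are uncertain. miR-411-5p and miR-379-5p, the 5p arms of neighbouring precursors, match at 14 of 21 bases, but the first difference, G2A from miR-379-5p to miR-411-5p, lies in the seed.

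Levels below are the deposited values, read counts scaled by library, and are called normalized reads. Their totals lay between 44870956 and 45619789 in the saline libraries and between 44098338 and 44437368 in the withdrawal libraries. Neuronal marker miRNAs (5 of 5 listed) were present in every library, with summed levels of 2895470 to 2916440 in saline and 2823650 to 2895890 in withdrawal. Summed levels of 5 of the other 7 marker lists did not overlap between groups. The choroid plexus and epithelial list (10 of 10 found) ran from 91617 to 95341 in saline and from 97789 to 99357 in withdrawal. The erythrocyte list (4 of 4) ran from 207617 to 214571 and from 231966 to 238857. Its miR-486a-5p and miR-486b-5p had almost the same log2 fold change (0.158 and 0.157), and their reads may be counted for both. The vessel list (4 of 4) ran from 1271290 to 1298790 and from 1305120 to 1339330. Within it miR-143-3p was positive (log2 fold change 0.08 ± 0.03, SE). Its miR-126a-3p (-0.10 ± 0.03, limma adjusted p = 0.0347), miR-126a-5p (-0.07 ± 0.03) and miR-145a-5p (-0.06 ± 0.06) were negative. The oligodendrocyte list (3 of 3) ran from 104793 to 110978 and from 97921 to 100514. In it miR-338-3p (-0.16 ± 0.03) and miR-219a-2-3p (-0.03 ± 0.03) were negative and miR-219a-5p (0.08 ± 0.05) positive. The microglia and leukocyte list (5 of 5) ran from 37604 to 39195 and from 35281 to 35907. Its miR-150-5p (-0.13 ± 0.03) and miR-142a-5p (-0.06 ± 0.03) were negative. Its miR-155-5p (0.26 ± 0.20), miR-223-3p (0.15 ± 0.12) and miR-142a-3p (0.01 ± 0.06) were positive. The muscle list (3 of 3; 6326 to 6442 and 6352 to 6591) and the mesenchyme and meninges list (2 of 3; 796 to 861 and 841 to 884) overlapped. None of these markers was at 0 in all libraries, and their part in the results was not tested. In bulk tissue fewer cells of a type and less RNA per cell cannot be told apart.

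A few arms held most of the member reads. Among the 71 tested members, the saline mean ran from 6.70 to 712945 normalized reads, and 19 members reached 10000 while 11 of all 73 stayed under 100. miR-411-5p, the most abundant, held 719101, 701728 and 718005 normalized reads in the saline libraries. miR-410-3p, from the far end of the cluster, held 555942, 547588 and 556009. miR-300-3p held 332181, 322941 and 338078, and miR-541-5p 253546, 255766 and 247356. These libraries kept the same order of the 4 arms, with no overlap between neighbours in the order. miR-341-3p, a miRNA known from rodents, came next, with 98363, 92935 and 98995, and is the only one of the 5 outside the miR-379/410 cluster. Together the 5 took 82.1 ± 0.250% of member reads in saline and 82.0 ± 0.108% in withdrawal (mean ± SD, n = 3 each).

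miR-409-3p (55700 ± 2105) and miR-376b-3p (31399 ± 1025) came next in saline (mean ± SD, n = 3). miR-379-5p (26029 ± 1081) and miR-369-3p (23896 ± 144) followed, and miR-668-3p (22145 ± 847) closed the 10 most abundant. The miR-668-3p libraries lay at 21376, 22005 and 23052, below the lowest miR-369-3p library at 23767. miR-487b-3p, the next arm in order, lay between 20716 and 22009 and so overlapped miR-668-3p.

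**Figure D1:**
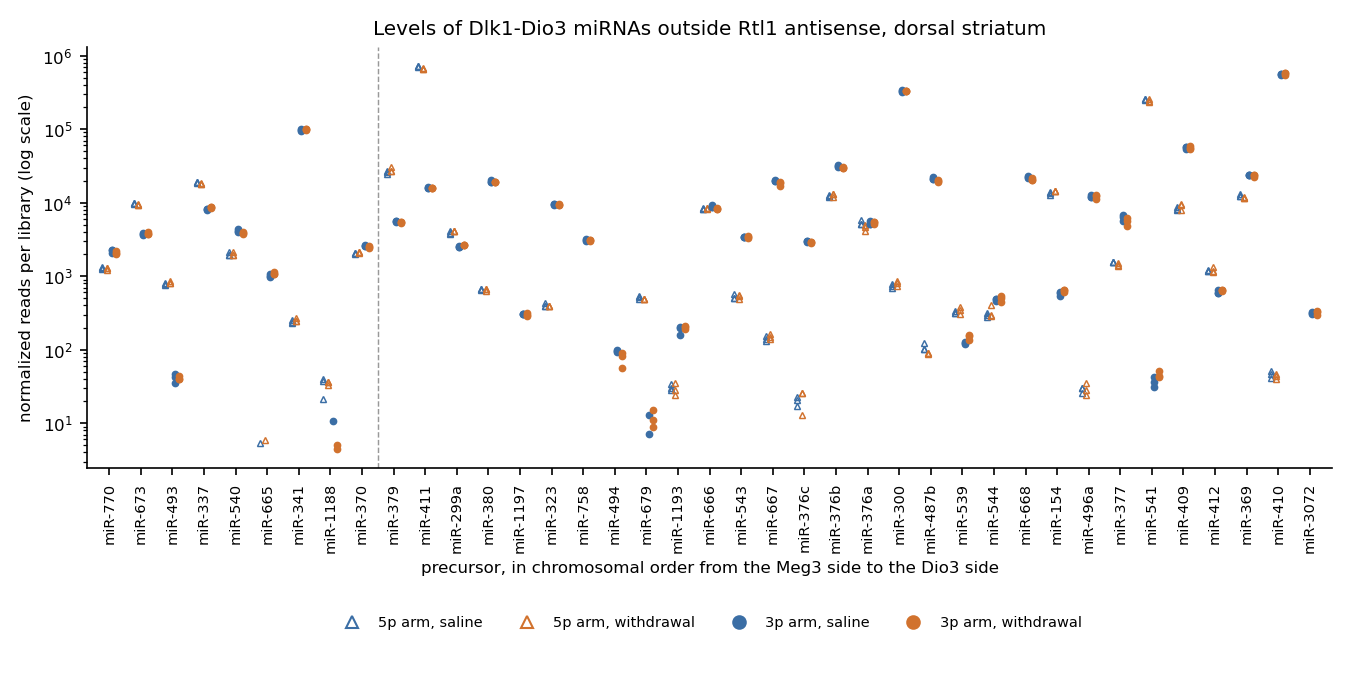
Normalized reads of each member in each library (log axis), by precursor in chromosomal order from the Meg3 side to the Dio3 side. Triangles are 5p arms, filled circles 3p arms, blue saline and orange withdrawal. The dashed line separates precursors before miR-379 from those of the miR-379/410 list, and values of 0 are not drawn. Saline and withdrawal points sit nearly on each other for most members, and no library of the 5 highest arms lies below 92935.

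By position, 9 precursors lie before miR-379, from miR-770 to miR-370, and 30 from miR-379 onward, the last of which, miR-3072, lies beyond miR-410. Of the 9, miR-341, miR-1188 and miR-370 lie past Rtl1 and the antisense set left out here. The precursors miR-673, miR-493, miR-337, miR-540 and miR-665 follow the start of Rtl1 and precede miR-431. Whether these are antisense to Rtl1 was not examined. Members before miR-379 took 0.339 ± 0.004% of all normalized reads in saline and 0.349 ± 0.005% in withdrawal (n = 3 each). These shares did not overlap (exact permutation p = 0.1, the smallest possible), and miR-341-3p alone held 0.214% in saline. The total that divides them was lower in every withdrawal library than in any saline library. Of the 16 tested arms before miR-379, 9 had positive and 7 negative log2 fold changes, and none passed the test used below. Members from miR-379 onward took 4.895 ± 0.004% and 4.915 ± 0.056% (n = 3 each), with overlap. Within the 9, miR-341-3p was followed by miR-337-5p, whose highest library held 19154 normalized reads. The 5p arm of miR-341 stood at 234, 228 and 255 in saline.

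The part of all normalized reads held by the members did not separate the conditions. Their summed share was 5.239, 5.232 and 5.233% of normalized reads in saline and 5.228, 5.234 and 5.332% in withdrawal. The withdrawal values enclosed the saline values, and the difference of 0.030 percentage points gave p = 0.8 in an exact permutation test (two-sided, n = 3 each, smallest possible p 0.1). Without miR-411-5p the share was 3.661 ± 0.006% in saline and 3.757 ± 0.043% in withdrawal, with no overlap (exact permutation p = 0.1, n = 3 each). This share is also divided by totals that were lower in every withdrawal library. Whether its separation is particular to the members was not tested.

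Nicotine withdrawal was accompanied by a change past the threshold in 1 of the 71 members tested, against 6.58% of all 699 miRNAs tested. In that fit 21 of the 699 were higher (3%) and 25 were lower (3.58%), and the 1 member was among the lower ones. The count over all miRNAs depended on the setting: it was 61 with equal library totals (46 higher, 15 lower), 22 with quantile normalization and 0 in limma without the trend (112 at an unadjusted p under 0.05). With one library left out it ran from 13 (without saline 2) to 58 (without withdrawal 3), and was 22 without saline 3 and 21 without withdrawal 2. The test was limma with a trend of variance on level, on log2(value + 1), with Benjamini-Hochberg adjustment over the 699 and a threshold of 0.05. The 2 members left out by the filter on low values were miR-1188-3p and miR-665-5p. miR-1188-3p was listed at 0, 10.7 and 0 in saline and at 4.98, 4.47 and 0 in withdrawal, and miR-665-5p at 0, 5.33 and 0 and at 5.97, 0 and 0.

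The member that fell was miR-411-5p, from 719101, 701728 and 718005 normalized reads in saline to 661031, 663909 and 677731 in withdrawal. Each withdrawal library lay below each saline library. The group means were 712945 ± 9729 and 667557 ± 8928 (SD, n = 3), a ratio of 0.936 and a log2 fold change of -0.09 ± 0.03 (SE; limma adjusted p = 0.0491). The call sat at the threshold. It passed in 6 of 15 alternative settings, with adjusted p from 0.00901 to 0.238 and a lower value in all 15, and it ended in limma without the trend (adjusted p = 0.238). With equal library totals it stood at -0.06 (limma adjusted p = 0.139). It ended when any library but withdrawal 3 was left out (adjusted p from 0.113 to 0.199, limma).

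The other arm of the same precursor did not pass. miR-411-3p stood at 16268, 15730 and 15633 in saline and 15796, 15949 and 16028 in withdrawal, so that the groups overlapped (log2 fold change 0.00 ± 0.03, limma adjusted p = 0.956). miR-379-3p, which shares its seed, was at 5575 ± 95.1 and 5397 ± 60.2 (-0.05 ± 0.03, limma adjusted p = 0.439), its groups apart by less than 1 normalized read. miR-379-5p, from the precursor beside miR-411, was at 24831, 26323 and 26932 in saline and 26602, 27155 and 30320 in withdrawal. Its highest library was withdrawal 3, and the groups overlapped (0.11 ± 0.05, limma adjusted p = 0.185).

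The other 4 of the 5 most abundant members overlapped between groups. miR-410-3p reached 576167, 550757 and 579605 in withdrawal (log2 fold change 0.04 ± 0.03, 95% interval -0.02 to 0.10). miR-300-3p stood at 0.00 ± 0.03 (-0.05 to 0.06), miR-541-5p at -0.04 ± 0.03 (-0.11 to 0.03) and miR-341-3p at 0.03 ± 0.03 (-0.04 to 0.10). Their limma adjusted p lay between 0.437 and 0.966. Of the next 5, miR-409-3p stood at 0.01 ± 0.04 and miR-369-3p at -0.04 ± 0.03.

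**Figure D2:**
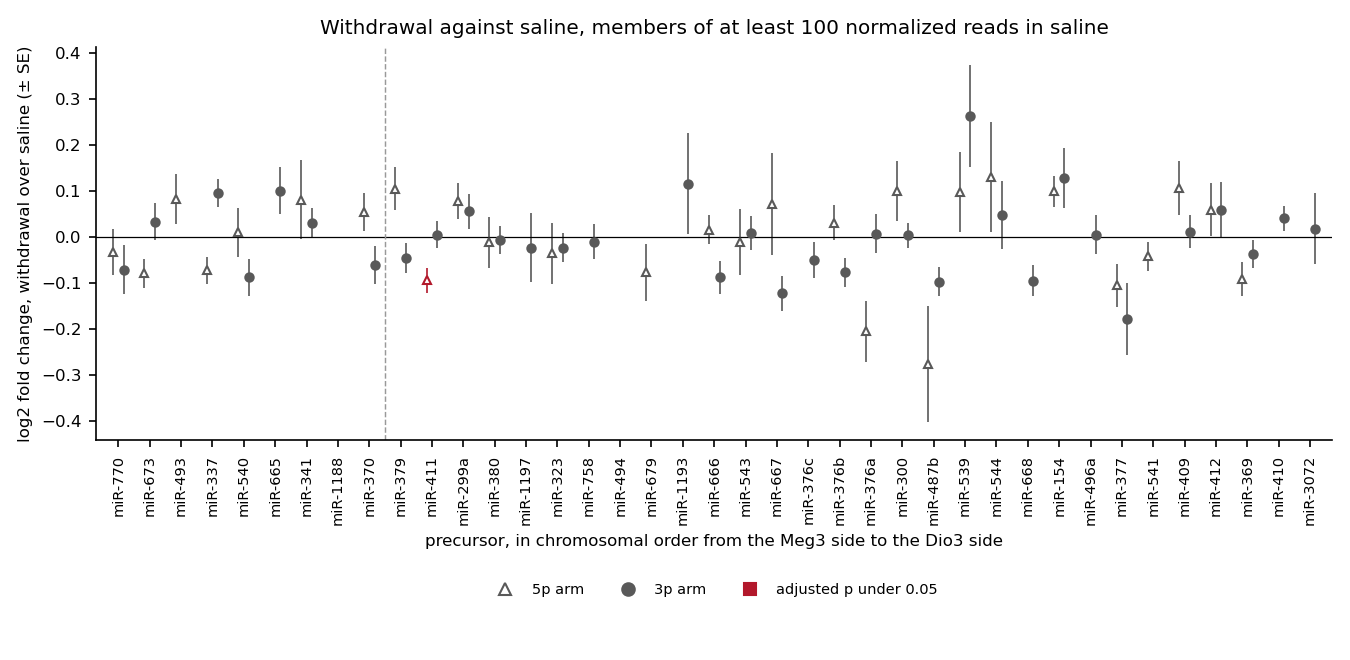
Log2 fold change of withdrawal over saline (± SE, limma) for members of at least 100 normalized reads in saline, by precursor in chromosomal order. Open triangles are 5p arms and filled circles 3p arms. The red symbol, miR-411-5p at -0.09, is the 1 member past the adjusted threshold. Values above and below 0 occur on both sides of the dashed line, which separates precursors before miR-379 from the others.

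Over all 71 tested members the log2 fold changes centred on 0, with a median of 0.005 against 0.003 over all tested miRNAs. Of the 71, 38 had positive and 33 negative values. Groups did not overlap in 19 members, 6 with withdrawal higher and 13 lower, which is 26.8% against 27.6% of all tested miRNAs. An unadjusted p under 0.05 was found in 18 members, or 25.4% against 22.9% of all tested miRNAs. For the 44 members of at least 1000 normalized reads the values ran from -0.21 to 0.11. In 42 of these the 95% interval lay within a 1.2-fold change in either direction, as it did in 92.4% of the 278 other tested miRNAs of that level. Of the 19 members of at least 10000, 1 passed the test, against 22 of the 137 other miRNAs of that level (5.26% and 16.1%).

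Beside miR-411-5p, the members with the smallest p were chosen by rank and did not pass. miR-667-3p stood at 19826, 20149 and 19483 in saline and 18644, 18948 and 17053 in withdrawal (log2 fold change -0.12 ± 0.04, limma adjusted p = 0.0762). miR-376a-5p stood at 5727, 5102 and 5065 and at 5018, 4692 and 4098 (-0.21 ± 0.07, limma adjusted p = 0.0826). The groups did not overlap in either, and the lowest library of both was withdrawal 3. miR-337-3p was at 8198, 8132 and 7928 in saline and 8603, 8756 and 8558 in withdrawal, each withdrawal library above each saline library (0.10 ± 0.03, limma adjusted p = 0.0870). miR-154-5p was at 13855, 13466 and 12766 and at 14296, 14264 and 14363, again without overlap (0.10 ± 0.03, limma adjusted p = 0.102). With equal library totals miR-337-3p and miR-154-5p passed, at 0.13 each (limma adjusted p = 0.0292 and 0.0336).

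The remaining 5 of the 10 with the smallest p had negative values. miR-487b-3p stood at -0.10 ± 0.03, miR-668-3p at -0.10 ± 0.03 and miR-369-5p at -0.09 ± 0.04. miR-376b-3p stood at -0.08 ± 0.03 and miR-673-5p at -0.08 ± 0.03. Their limma adjusted p lay between 0.0935 and 0.156, and the libraries of miR-668-3p and miR-376b-3p overlapped between groups.

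**Figure D3:**
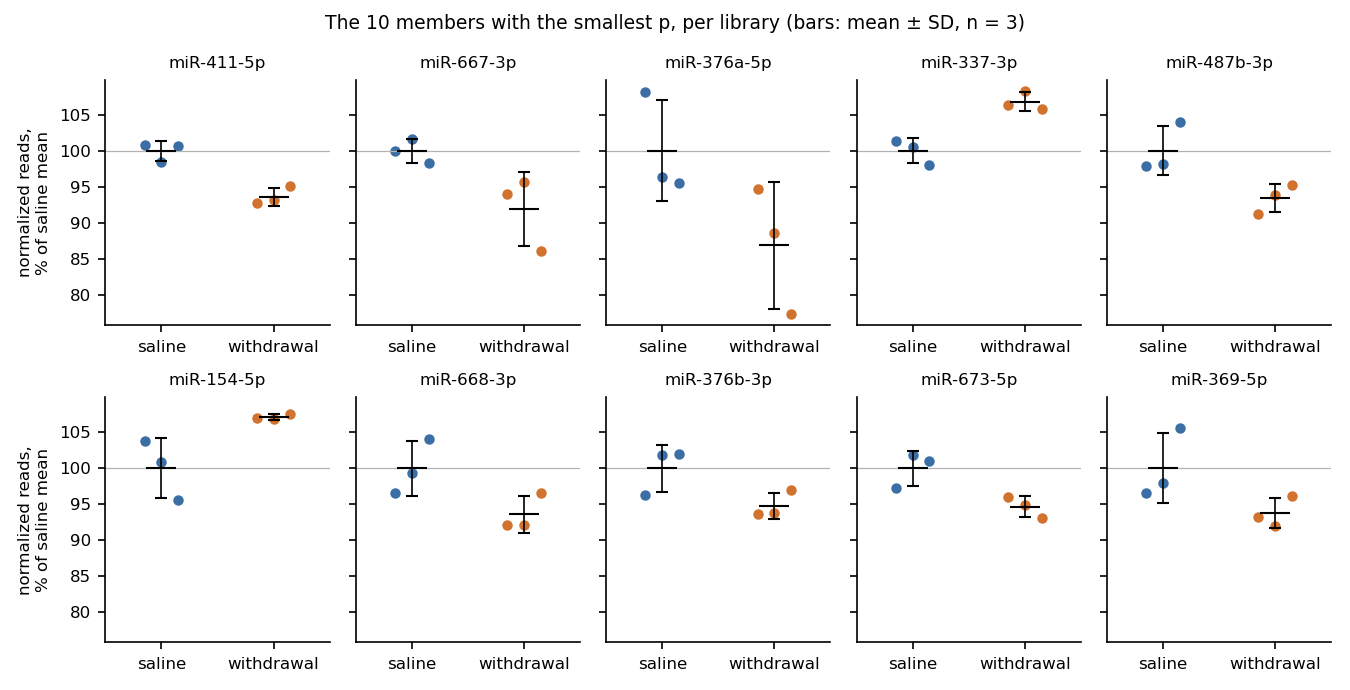
Normalized reads per library of the 10 members with the smallest p, as percent of the saline mean (points: libraries; bars: mean ± SD, n = 3). The vertical axis does not start at 0. The withdrawal mean of miR-411-5p is 0.936 of its saline mean, and of the 10 members only miR-337-3p and miR-154-5p lie above it.

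miR-369-3p, miR-496a-3p and miR-543-3p belong to the miRNAs of this cluster that repress N-cadherin, an adhesion protein, in mouse neural progenitors. miR-496a-3p stood at 12101 ± 467 in saline and 12147 ± 680 in withdrawal, and miR-543-3p at 3400 ± 50.6 and 3419 ± 68.9 (SD, n = 3). Their log2 fold changes were 0.00 ± 0.04 and 0.01 ± 0.04, and the limma adjusted p of the 3 lay between 0.510 and 0.966. miR-758-3p, which represses the cholesterol transporter Abca1, stood at 3101 ± 69.5 and 3078 ± 34.0 (-0.01 ± 0.04, limma adjusted p = 0.926).

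The miR-376 precursors are known for adenosine-to-inosine editing by ADAR enzymes, which can change the seed. The table gives 1 value per arm, and edited reads were not analysed here. miR-376a-3p stood at 5324 ± 275 in saline and 5348 ± 197 in withdrawal (log2 fold change 0.01 ± 0.04, limma adjusted p = 0.953). miR-376b-5p was at 12416 ± 280 and 12686 ± 642 (0.03 ± 0.04, limma adjusted p = 0.702) and miR-376c-3p at 2961 ± 77.8 and 2859 ± 51.5 (-0.05 ± 0.04, limma adjusted p = 0.488). miR-376c-5p lay between 12.9 and 25.9 in all 6 libraries.

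The lowest members carried the widest errors. miR-679-3p was listed at 0, 7.11 and 13.0 in saline and at 10.9, 8.93 and 15.0 in withdrawal. miR-494-3p stood at 95.1, 92.4 and 97.8 in saline and at 56.7, 83.1 and 90.9 in withdrawal (log2 fold change -0.33 ± 0.17, limma adjusted p = 0.270). The miR-494-3p groups did not overlap, and withdrawal 1 was the lowest library. None of the 9 tested members under 100 normalized reads had a 95% interval within a 1.2-fold change, so a change of that size was not excluded there. The same held for all 185 other tested miRNAs of that level.

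The division of reads between arms differed widely between precursors. Both arms were tested for 32 precursors. The 3p arm was the more abundant in 21 and the 5p arm in 11, and the same arm led in all 6 libraries for 30 of them. In 14 precursors the arms differed by more than 10-fold in saline, and in 8 by less than 2-fold. The most unequal was miR-410, with 0.008 ± 0.001% of its reads on the 5p arm in saline. miR-541 had 99.985 ± 0.003% and miR-300 0.224 ± 0.016% (n = 3 each). The most equal were miR-376a (49.9 ± 0.515% on the 5p arm), miR-666 (48.3 ± 1.19%) and miR-370 (43.8 ± 0.234%).

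**Figure D4:**
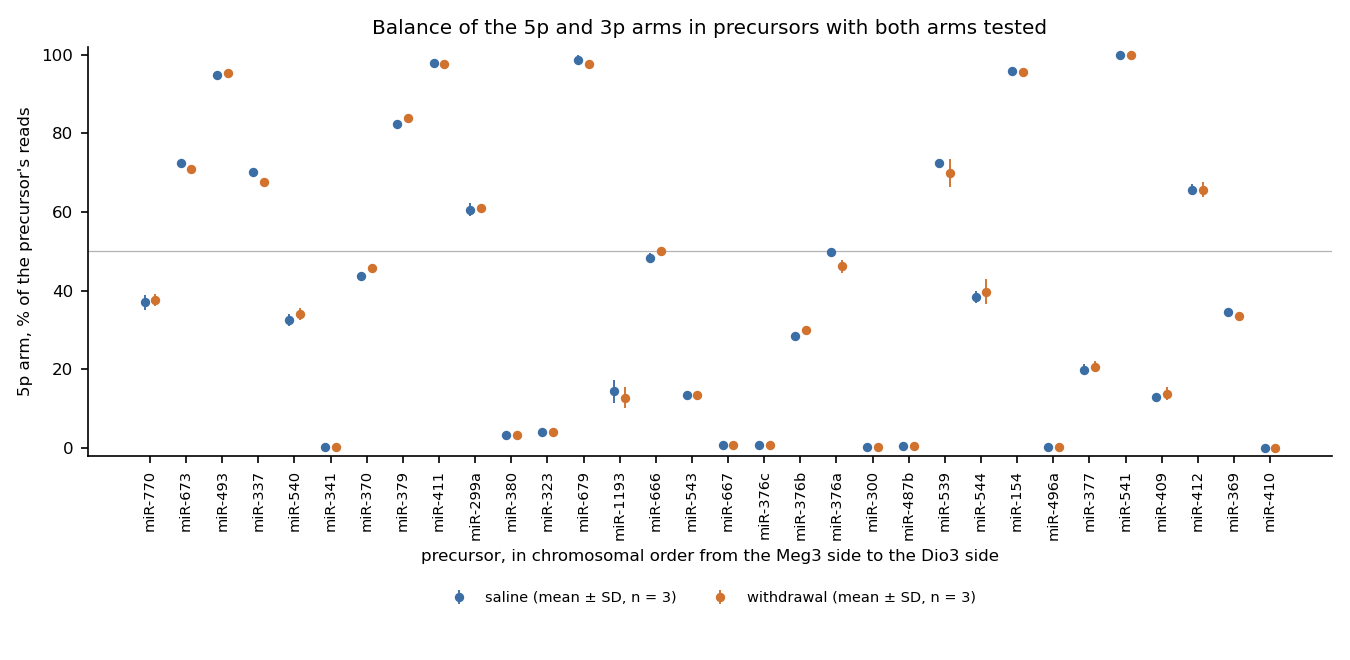
Share of a precursor's reads on its 5p arm, in percent, for the 32 precursors with both arms tested, in chromosomal order (points: mean, bars: SD, n = 3 per group). Precursors range from 0.008% (miR-410) to 99.985% (miR-541), and the saline and withdrawal points of miR-337 lie at 70.1% and 67.6%.

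None of the 32 arm ratios passed in limma on log2((5p + 1)/(3p + 1)), adjusted over all 203 precursors of the table, of which 0% passed. An unadjusted p under 0.05 was found for 6 of the 32, against 16.3% of the 203. Of the 32, miR-337, miR-376a and miR-667 had the smallest p. The mature arms of the first pair of precursors are shown because these had the lowest p of the 32.
miR-337-5p: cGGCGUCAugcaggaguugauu
miR-337-3p: uCAGCUCCuauaugaugccuuu
miR-376a-5p: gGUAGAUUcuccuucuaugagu
miR-376a-3p: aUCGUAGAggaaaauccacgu
The log2 ratio of 5p to 3p of miR-337 was 1.22, 1.23 and 1.24 in saline and 1.11, 1.04 and 1.05 in withdrawal. It was lower by 0.17 ± 0.04 in withdrawal with no overlap (limma adjusted p = 0.129, a value tied over 15 of the 203 precursors, among which its unadjusted p ranked 9). miR-337-5p itself was at 18995 ± 228 and 18066 ± 426, and miR-337-3p at 8086 ± 141 and 8639 ± 104. For miR-376a the log2 ratio was 0.02, -0.01 and -0.04 in saline and -0.13, -0.21 and -0.32 in withdrawal (difference -0.21 ± 0.06, limma adjusted p = 0.176). For miR-667 the difference was 0.19 ± 0.07 and for miR-411 -0.10 ± 0.04 (limma adjusted p = 0.254 and 0.288). The libraries of all 4 precursors did not overlap between groups, as was the case for 8 of the 32 (25.0%) and for 27.1% of the 203.

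In the same fit, 2 of the 10 arms of the Rtl1 antisense list passed, both lower: miR-434-3p (log2 fold change -0.24 ± 0.05) and miR-431-5p (-0.15 ± 0.03). Of the 12 arms of the other miR-379/410 list, miR-485-5p passed, also lower (-0.19 ± 0.03). Over all 699 miRNAs tested, 6.58% passed and 3.58% passed as lower. The 2 lists had median saline levels of 72486 and 4452 normalized reads. Of miRNAs outside the members, 16.1% passed at a level of at least 10000 and 9.93% from 1000 to 10000. The median log2 fold changes of these lists were 0.004 and 0.027. Their summed shares of normalized reads were 24.8 ± 0.256% and 1.017 ± 0.006% in saline and 23.8 ± 0.920% and 1.089 ± 0.006% in withdrawal, with exact permutation p = 0.3 and 0.1 (n = 3 each).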

How the data were processed

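Small RNA libraries were made with the TruSeq Small RNA kit from Trizol-extracted RNA of 6 samples, per the labels' protocols. The authors deposited a normalized signal: reads per mature miRNA scaled by a factor for each library. DESeq2 and the mouse build mm9 are named in the submitters' processing notes, with no version or role; the aligner, annotation, filters and treatment of shared reads have no statement in the labels. Within each library, 100% of values were multiples of a common step (tolerance 0.01). If a step is 1 read, depth was 40111870 to 53262896 reads per library. The smallest positive value was 4 or 5 steps, so a listed 0 may hide smaller values, and no count test was run. Reads carry no molecular identifiers.

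Tests used log2(value + 1), and a miRNA had to reach 10 in 3 or more libraries (699 of 756). limma 3.58.1 in R 4.3.3 was fitted to the whole table, with a variance trend for miRNAs and none for arm ratios, two-sided, threshold 0.05. The added 1 shrinks fold changes of low miRNAs. Summed shares were compared with exact permutation tests (scipy 1.17.1). The main miRNA fit was tested on data simulated with independent normal noise, while the arm-ratio fit and the other settings were not. Named members were, by rule, those past the threshold, the 10 with the smallest p, the 10 most abundant, sharers of a seed, those at 0, and the 3 most equal, most unequal and smallest-p arm pairs. miR-494-3p, miR-496a-3p, miR-543-3p, miR-758-3p and miR-376c-3p were named outside the rule. The members and lists were chosen with earlier results of these data known. RefSeq sequences come from another build than mm9, so no coordinates are given.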

Additional observations from a re-analysis of the deposited data

How the results depend on the processing

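The count of 1 member past the threshold stayed with a pseudocount of 0.5, a filter of 50, median-ratio scaling and quantile normalization. It was 0 with a pseudocount of 5 or no filter (smallest limma adjusted p = 0.0504 and 0.0519, 18 members at an unadjusted p under 0.05 in each) and in limma without the trend (0.225; 5 members at an unadjusted p under 0.05). It was 2 with equal library totals, both higher, where the median member log2 fold change was 0.0373 against 0.0351 over all miRNAs. Leaving out one library gave from 0 to 3 members (0 without saline 2, saline 3 or withdrawal 2, 3 without withdrawal 3), and medians from -0.0179 to 0.00316. All tested miRNAs past the threshold numbered 46, 22 with quantile normalization, 0 without the trend (112 at an unadjusted p under 0.05), 61 with equal totals (46 higher), and 13 to 58 with one library left out. When the replicate number entered as a block, 12 members (3 higher, 9 lower) and 106 miRNAs passed; same-numbered libraries deviated with r = -0.07, 0.09 and 0.04, so the numbers were not taken as pairs. No member arm ratio passed in any setting run. The difference in summed share was 0.030 percentage points, -0.021 of reads outside miR-127-3p, 0.096 without miR-411-5p, and -0.00401 (without withdrawal 3) to 0.0479 with one library left out. The cause of these shifts was not tested. Count tests planned for whole reads were not run. Depth limits the members under 100 normalized reads.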
